A study of Mus musculus with 13 samples.

Results

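Glucocorticoid receptor (GR, encoded by Nr3c1) peaks that lay between genes, more than 100 kb from the start of the gene they were assigned to, were taken from the list of peaks found in wild-type and not in mutant mouse embryonic fibroblasts (MEFs). They were selected on that list and on the position and distance in the authors' annotation, and numbered 3208 of 18953 wild-type-specific peaks (16.9%, exact 95% interval 16.4 to 17.5%) and of 24673 peaks in the 3 merged lists. They are called distal peaks here. Since the wild-type and mutant lists chose them, their absence from the mutant list is not a finding.

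Fibroblasts were grown for 7 days from male C57BL/6 embryos of day 13.5 without head and internal organs, and were wild-type (GR wt/wt), mutant (GR Zn/Zn, mutated in a zinc finger with which the receptor contacts DNA) or without receptor (GRKO). All received dexamethasone (Dex, a synthetic glucocorticoid) at 1 µM for 16 h. A first set of 3 wild-type, 4 mutant and 2 knockout libraries also received lipopolysaccharide (LPS, from the outer membrane of bacteria, which triggers inflammation) at 100 ng/µl, as labelled, for 3 h. A second set of 2 wild-type and 2 mutant libraries received Dex alone. The first set was available as merged lists of peaks specific to wild-type cells, shared, or specific to mutant cells, freed of peaks seen in knockout cells, with no value per library. The second set had 1 list per library and was not used to choose the peaks. No untreated or LPS-only cells were among the groups, so binding is not compared with cells lacking hormone. Peaks give no expression level, so neither the genotype nor the cell type could be checked from marker genes. The sequencing depth behind each list is unknown. The number of embryos behind each culture is not stated.

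As background, GR is a hormone-activated transcription factor that binds palindromic response elements, single arms of these, and regions opened by other factors such as AP-1. Much of its binding falls at enhancers, and an enhancer can act on a gene far away by looping, past nearer genes. Genes that control development often have long gene-poor flanks, called gene deserts, that hold many such enhancers. The nearest gene is therefore a label of position and need not be the gene that a peak acts on.

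The label "intergenic, beyond 100 kb" held only under the authors' gene set and their distance, which runs to the gene start. Measured to the nearest edge of the assigned gene, 823 peaks (25.7%) lay within 100 kb, all of them downstream, and 160 of those within 10 kb. Against the RefSeq gene table of the same assembly (GRCm38), 488 peaks (15.2%) overlapped an annotated gene, namely a long non-coding RNA (lncRNA) gene for 363 and a protein-coding gene for 92. Far fewer, 586 (18.3%), lay over 100 kb from any RefSeq gene, but 2346 (73.1%) lay over 100 kb from the nearest protein-coding gene. The set is thus mainly far from protein-coding genes and often near non-coding ones.

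Sequence was at hand only where a distal peak fell in a RefSeq promoter window, 250 bases before to 50 after a gene start. This was so for 19 distal peaks (0.592%), all at promoters of lncRNA genes, against 254 of the 6302 wild-type-specific intergenic peaks within 100 kb (4.03%). Windows held 8 distal peaks whole, so that their 200 bases could be read from RefSeq. The 4 of these that held an AP-1 element (TGANTCA) or a single arm of the GR palindrome (GAACA or TGTTC) are shown, since they let the reader see what such a site looks like. Each runs 5′ to 3′ on the strand of the lncRNA gene, and capitals mark the AP-1 elements and palindrome arms.
Gm29906 promoter: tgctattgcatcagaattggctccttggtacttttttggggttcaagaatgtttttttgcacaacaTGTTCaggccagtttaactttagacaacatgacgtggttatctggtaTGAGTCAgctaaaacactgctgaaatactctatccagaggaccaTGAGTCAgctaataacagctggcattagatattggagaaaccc
Gm46323 promoter: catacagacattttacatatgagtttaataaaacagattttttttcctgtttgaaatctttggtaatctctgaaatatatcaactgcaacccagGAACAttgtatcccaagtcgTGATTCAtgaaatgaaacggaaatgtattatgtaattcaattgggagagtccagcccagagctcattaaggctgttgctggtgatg
Gm14062 promoter: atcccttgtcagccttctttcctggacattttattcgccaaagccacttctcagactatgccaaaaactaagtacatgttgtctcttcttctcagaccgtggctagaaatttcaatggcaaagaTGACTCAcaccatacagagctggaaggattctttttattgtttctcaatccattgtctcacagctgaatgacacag
Gm31254 promoter: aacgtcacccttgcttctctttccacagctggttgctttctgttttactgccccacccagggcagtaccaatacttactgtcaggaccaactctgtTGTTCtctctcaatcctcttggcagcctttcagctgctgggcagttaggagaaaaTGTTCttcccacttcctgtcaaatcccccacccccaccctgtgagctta

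The first was the peak chr1:70918492-70918691 (mm10, minus strand), assigned to Vwc2l at 193 kb, with 2 AP-1 elements and 1 arm. The second was chr12:9371222-9371421 (plus strand), assigned to 1700022H16Rik at 199 kb, with 1 of each. The peak chr2:137876875-137877074 (minus strand), assigned to Btbd3 at 380 kb, held 1 AP-1 element and no arm. The peak chr1:73140664-73140863 (minus strand), assigned to 1700027A15Rik at 125 kb, held 2 arms and no AP-1 element. In all, 3 of the 8 peaks held an AP-1 element, 3 an arm and 0 the full palindrome (GAACA and TGTTC spaced by 3 bases), searched on both strands. Across the middle 200 bases of all 32851 promoter windows the shares were 5.48%, 29.8% and 0.0304%. A match is a run of letters and not a measured contact, and 8 peaks chosen by lying in a promoter do not stand for the others. None of the 19 peaks overlapped a peak of a wild-type Dex library.

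The distal peaks spread over a wide range of distances. The median distance from peak midpoint to gene start was 216 kb, with the middle 50% between 142 and 388 kb. From 100 to 200 kb there were 1459 peaks (45.5%), from 200 to 500 kb 1201 (37.4%), from 500 to 1000 kb 419, and beyond 1000 kb 129. More lay downstream of their gene (2105, median 232 kb) than upstream (1103, median 198 kb). The excess downstream came in part from long genes, whose far end already lies past 100 kb from the start: beyond 100 kb from the gene edge, 1282 downstream and 1103 upstream peaks remained.

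The threshold cut through a continuous range. Just inside it were peaks of Ism1 (100.13 kb), Klf7 (100.174 kb), Tsc22d2 (100.197 kb), Mtpn (100.204 kb) and Pawr (100.283 kb). Just outside were peaks of Actn1 (99.983 kb), Mir680-3 (99.941 kb), 4921513I03Rik (99.872 kb), Msr1 (99.862 kb) and Twist2 (99.791 kb). Tsc22d2 belongs to the family of the glucocorticoid-induced gene Tsc22d3, and Twist2 is a transcription factor of mesenchyme, so genes of interest stood on both sides.

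The farthest peaks were of mixed kinds. The largest distance, 2594 kb, belonged to Gm20823 on chromosome Y, whose span in the annotation is 22542 kb, so that this distance rests on an annotation of unusual length. Dmd, the dystrophin gene, had a peak 2397 kb from its start and 7.2 kb beyond its end. Cntnap2 and Lsamp, which encode neuronal adhesion proteins, had peaks at 2259 and 2206 kb that lay 17.3 and 16.1 kb past the gene end. The peak of the glutamate receptor gene Grik2, 2123 kb from the start and 1434 kb past the end stood far from both ends of the gene.

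**Figure D1:**
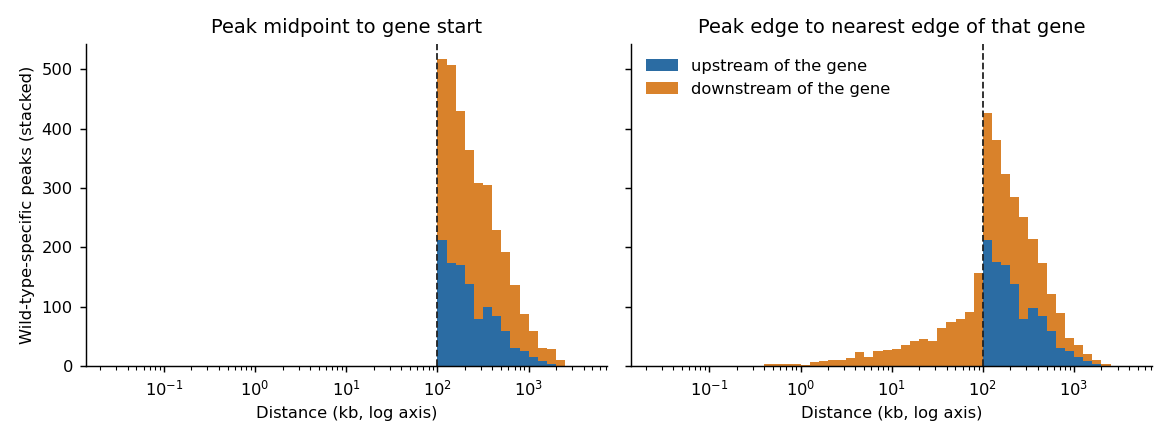
Distances of the 3208 distal peaks, as numbers of peaks in equal steps of a log axis in kb, from peak midpoint to gene start (left) and from peak edge to the nearest edge of the same gene (right), stacked by side of the gene; the dashed line marks 100 kb. All peaks lie beyond the line on the left by the rule, whereas 823 lie short of it on the right, all downstream.

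The distal peaks were unevenly spread over the chromosomes. Chromosomes 10 to 14 held 1373 of them (42.8%, interval 41.1 to 44.5%), against 30.4% of the intergenic peaks within 100 kb, 26.9% of the peaks inside genes and 24.3% of those at gene starts. These 5 chromosomes were singled out because earlier results of these data showed them to stand apart, and the shares are given as a description. Per Mb of chromosome, distal peaks numbered 2.74 on chromosome 13, 2.65 on 10, 2.32 on 12, 1.96 on 14 and 1.44 on 11. No other chromosome exceeded 1.32 (chromosome 4). Chromosome 19 had 0.277 and X 0.117. The pattern grew with distance: chromosomes 10 to 14 held 38.8% of the distal peaks at 100 to 200 kb, 44.9% at 200 to 500 kb, 46.8% at 500 to 1000 kb and 55.8% beyond 1000 kb, where the interval was 46.8 to 64.5%.

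As a group, chromosomes 10 to 14 held about as much gene-poor DNA as the others, though single chromosomes ranged from 18.9% (chromosome 7) to 37.6% (chromosome 12) without Y. Gene deserts, taken as DNA over 100 kb from any RefSeq protein-coding gene, made up 30.7% of chromosomes 10 to 14 and 28.7% of the others without Y, and held 2347 of the distal peaks. In deserts, wild-type-specific peaks of every class numbered 6.96 per Mb on chromosomes 10 to 14 and 2.92 per Mb elsewhere, 2.38 times as many. Outside deserts they numbered 10.5 and 7.96 per Mb, 1.32 times as many. The 5 highest desert densities were those of chromosomes 13 (9.04 per Mb), 10 (8.92), 12 (6.11), 14 (5.41) and 11 (5.35), and the next was chromosome 2 (4.49).

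The same chromosomes also held many peaks of the other lists. They held 58.3% of the 602 shared and 74.3% of the 339 mutant-specific peaks that met the same position rule. Elsewhere the ratio of desert to other density was 0.367 in the wild-type-specific list, 0.306 in the shared list and 0.200 in the mutant-specific list, and on chromosomes 10 to 14 it was 0.661, 0.741 and 0.878. Peaks of the wild-type Dex libraries had ratios of 0.662 and 0.808 elsewhere and 2.15 and 1.85 on chromosomes 10 to 14. Of the Dex peaks that met the position rule, chromosomes 10 to 14 held 77.0% and 79.1% in the wild-type libraries, but 29.6% and 42.9% in the mutant ones, whose 27 and 28 such peaks give wide intervals (13.8 to 50.2% and 24.5 to 62.8%). The mutant Dex libraries had desert ratios of 2.26 and 2.51 on these chromosomes and of 1.76 and 1.24 elsewhere. Neither copy number nor input reads could be examined here, so what sets these chromosomes apart was not tested, and the results below are given with and without them.

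**Figure D2:**
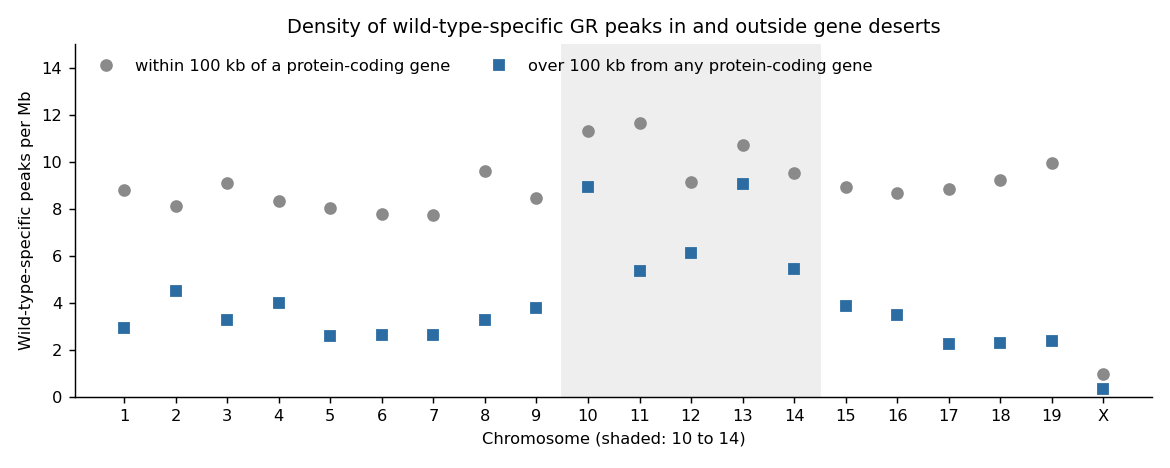
Wild-type-specific peaks of every position class per Mb (vertical axis) on each chromosome (horizontal axis), in gene deserts (squares) and in the rest of the chromosome (circles); chromosomes 10 to 14 are shaded. The 5 shaded squares, from 5.35 to 9.04 per Mb, lie above every other square, the next being 4.49 on chromosome 2.

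The part of wild-type sites that the mutant list also held showed no trend with distance over all chromosomes beyond 100 kb, but differed between the chromosome sets. Of all wild-type peaks that met the position rule, 15.8% (602 of 3810) were shared, against 16.4% of intergenic peaks within 100 kb, 14.7% inside genes and 24.01% at gene starts. By distance the shared part was 15.6% at 100 to 200 kb, 16.4% at 200 to 500 kb, 14.1% at 500 to 1000 kb and 17.8% beyond 1000 kb, with intervals that all overlapped. On chromosomes 10 to 14 it was 20.4% for distal peaks (351 of 1724), and elsewhere it was 12.03% (251 of 2086). Within 100 kb the same values were 18.5% and 15.5%. Outside chromosomes 10 to 14 the intervals were 10.7 to 13.5% for distal peaks and 14.5 to 16.5% within 100 kb. These intervals treat neighbouring peaks as independent and are given as a description. By distance the distal share outside these chromosomes was 12.5% at 100 to 200 kb, 12.7% at 200 to 500 kb, 8.61% at 500 to 1000 kb and 9.52% beyond. On chromosomes 10 to 14 it was 19.9%, 20.6%, 19.7% and 23.4%. The rule used the contrast between these lists, so no test was made.

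Binding under Dex alone gave the one readout of the distal peaks that had not chosen them. The first wild-type Dex library overlapped 18 of the 3208 distal peaks and the second 37, a mean of 27.5 ± 13.4 (SD, n = 2). Both mutant Dex libraries overlapped 0. Taking 3 counts as the limit, this allows a share of up to 0.0935% in each, and by the exact interval up to 0.115%. The wild-type and mutant libraries did not overlap in this count, but 2 against 2 libraries cannot give a p below 0.33, the value found (exact permutation test, two-sided). The mutant Dex lists were short, with 53 and 60 peaks against 412 and 854 in the wild-type libraries, so few overlaps could have been seen in them at any site. Of these peaks, 0 and 2 in the mutant libraries overlapped a peak of any of the 3 merged lists, against 104 and 198 in the wild-type ones. The count of 0 is thus not particular to distal peaks. No label says whether the Dex libraries stem from separate cultures, so the SD may measure technical spread alone.

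Counted by overlap with either wild-type library, distal peaks were found again under Dex more often than other wild-type-specific peaks. At least 1 wild-type Dex library overlapped 52 of them (1.62%, interval 1.21 to 2.12%), against 30 of 6302 intergenic peaks within 100 kb (0.476%), 49 of 9015 peaks inside genes (0.544%) and 1 of 383 at gene starts (0.261%). Over all 18953 wild-type-specific peaks the share was 0.696%. Fisher's exact test (over peaks, two-sided, Benjamini-Hochberg over the 3 comparisons) gave adjusted p = 1.08e-07 against peaks within 100 kb, 1.08e-07 against peaks inside genes and 0.0395 against gene starts. The test sets 1 list of peaks against another, with no spread over samples, and neighbouring peaks are not independent. With the first library alone the difference from peaks within 100 kb was 0.275 percentage points (Fisher's exact test, adjusted p = 0.0759), and with the second alone 0.852 (adjusted p = 3.32e-06).

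Nearly all of the 52 peaks, 47, lay on chromosomes 10 to 14. There 47 of 1373 distal peaks (3.42%) overlapped a wild-type Dex peak, against 20 of 1916 within 100 kb (1.04%, Fisher's exact test, adjusted p = 1.12e-05) and 30 of 2429 inside genes (1.24%, adjusted p = 1.55e-05). On the other chromosomes 5 of 1835 distal peaks (0.272%) did so, against 10 of 4386 within 100 kb (0.228%) and 19 of 6586 inside genes (0.288%), with adjusted p = 1 each by Fisher's exact test. Whether the difference between classes itself varied with the chromosomes was not tested. The Dex lists were themselves rich in intergenic peaks beyond 100 kb, which made up 45.4% and 44.8% of the wild-type lists, and 32.8% and 35.9% without chromosomes 10 to 14. Of the wild-type Dex peaks that met the position rule, 18 of 187 (9.63%) and 36 of 383 (9.40%) overlapped a distal peak.

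**Figure D3:**
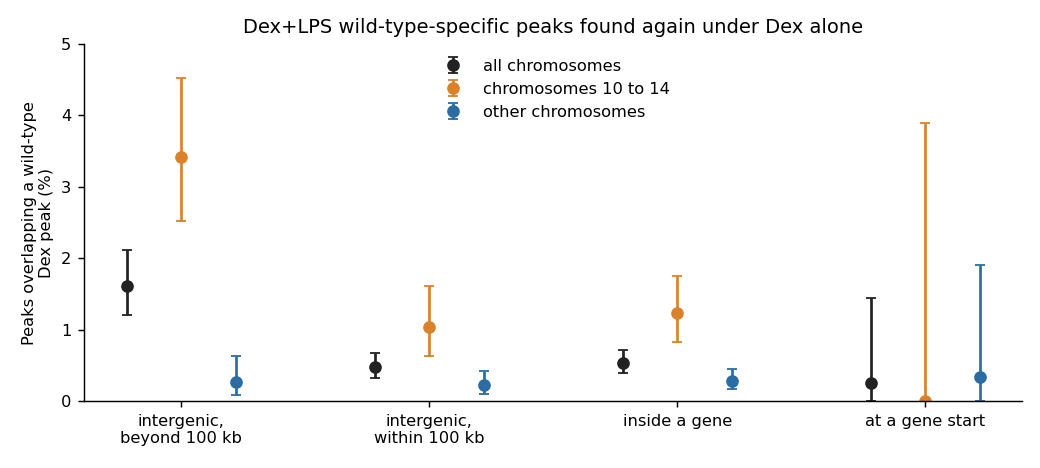
Percent of wild-type-specific Dex+LPS peaks (vertical axis) that overlapped a peak of either wild-type Dex library, by position class (horizontal axis), on all chromosomes, on chromosomes 10 to 14 and on the others; points are shares and bars exact 95% intervals. Distal peaks stand at 3.42% on chromosomes 10 to 14 and at 0.272% elsewhere, where the 4 classes have overlapping intervals.

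Both wild-type Dex libraries overlapped 3 of the 3208 distal peaks (0.0935%). One lay 241 kb downstream of the start of Epm2a, which encodes laforin, a phosphatase of glycogen (chr10:11584150-11584349), and 127 kb past the gene's end. Another (chr13:5604212-5604411) was assigned to the lncRNA gene 1700016G22Rik at 254 kb. That gene lies on the minus strand and starts at position 5858092, next to Klf6, a zinc finger transcription factor gene that starts at position 5861489 and had 4 distal peaks of its own. The last lay 918 kb from the start of Trpm3, a cation channel gene, and 67.1 kb past its end (chr19:23056940-23057139). It was the only one of the 3 outside chromosomes 10 to 14. None of the 3 was overlapped in a mutant Dex library. In the other classes both wild-type libraries overlapped 7 of 6302 peaks within 100 kb (0.111%), 8 of 9015 inside genes (0.0887%) and 0 of 383 at gene starts. Counted by both libraries, the share of distal peaks was thus near that within 100 kb and that inside genes.

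The 52 peaks seen under Dex were assigned to 48 genes and had a median distance of 235 kb, with 22 upstream and 30 downstream. Several of the genes encode transcription factors of embryonic patterning. Eya4, a phosphatase and transcriptional co-activator, had 2 of these peaks, and Osr1, Gli3, Isl1, Tfap2a and Etv1 had 1 each. Others encode secreted or adhesion proteins, among them the Wnt amplifier Rspo2, the hormone stanniocalcin (Stc1) and the protocadherins Pcdh17 and Pcdh20, with 1 each. Spanxn4, annotated as an lncRNA gene, had the most, 3. These genes outside the rule for named genes were picked after their values were seen, so no theme is claimed for them.

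Some distal peaks stood in groups, though a smaller share than of intergenic peaks within 100 kb or peaks inside genes. Another wild-type peak, specific or shared, lay within 10 kb of 1278 distal peaks (39.8%, interval 38.1 to 41.6%). The share was 47.9% for intergenic peaks within 100 kb, 45.4% for peaks inside genes and 35.2% for those at gene starts. For distal peaks it was 50.5% on chromosomes 10 to 14, and 31.9% elsewhere. A shared peak lay within 10 kb of 10.3% of distal peaks and a mutant-specific peak of 5.64%. For mutant-specific neighbours the share was 11.1% on chromosomes 10 to 14 and 1.53% elsewhere. The distal peaks nearest to each other were 107 bp apart, and 277 (8.63%) had another distal peak within 1 kb, and whether such close peaks are pieces of 1 broader peak was not tested.

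Joined at gaps of up to 10 kb, 2111 distal peaks stood alone, 364 pairs and 83 triples were formed, and 27 runs held 4 or more. Of these, 9 held at least 5. The densest of the 9, by length per peak, was a run of 5 peaks in 3.70 kb assigned to Sugct, an enzyme gene of glutarate metabolism (chr13:16599055-16602755). Next were 6 peaks in 4.62 kb assigned to Mdga2, a synaptic adhesion gene (chr12:67829433-67834047, about 607 to 611 kb from its start), and 6 peaks in 4.70 kb assigned to Hmga2 (chr10:120353960-120358654). Hmga2 encodes a chromatin protein of embryonic and growing cells, and its run lay just past the end of the gene, 118 to 123 kb from the start. Then came 5 peaks in 7.25 kb divided between 4921525O09Rik and Gadd45g, a gene of the DNA damage response, and 5 in 8.51 kb assigned to the transcription factor gene Klf12. The other runs, of Depdc1b, Tbl1xr1, Eya4 and the homeobox gene Obox2, ran from 9.40 to 27.3 kb.

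The 9 runs differed in what lay within 10 kb of them. The runs of Sugct, Mdga2, Hmga2, 4921525O09Rik with Gadd45g, and Tbl1xr1 had no shared, mutant-specific or Dex peak there. The Klf12 run had 2 mutant-specific peaks near it and the Obox2 run 1. The Depdc1b run had 3 shared peaks, 1 peak of the first and 2 of the second wild-type Dex library. The Eya4 run had 1 mutant-specific peak and 2 peaks of the second wild-type Dex library. Neither mutant Dex library had a peak within 10 kb of any of the 9, but their lists held only 53 and 60 peaks in all.

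The distal peaks were assigned to 1364 genes, of which 1074 were protein-coding and 243 lncRNA genes. In 686 genes there was 1 distal peak, 147 genes had at least 5 (1103 peaks together) and 30 at least 10. For 455 genes all wild-type-specific peaks were distal, and 291 of these (64.0%) had no peak of the shared or mutant-specific list. The same held for 50.8% of the 1364 genes with a distal peak and for 70.7% of the 7696 genes with any wild-type-specific peak. The gene with most was Flrt2, an adhesion and guidance receptor of the leucine-rich repeat class, with 19 distal peaks from 110 to 1070 kb away, 18 of them upstream. Its desert also held 6 shared and 3 mutant-specific peaks that met the position rule. All of these lay within 10 kb of a distal peak of Flrt2. Tns3, which links integrins to actin, had 17 distal peaks of 31 wild-type-specific ones, 0 shared and 1 mutant-specific distal peak. A further 8 wild-type-specific peaks lay inside Tns3. For comparison, 602 shared and 339 mutant-specific peaks met the position rule in the whole genome, beside the 3208 distal peaks.

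Other genes with many distal peaks differed in where these lay. Sugct had 15, all downstream and beginning 18.8 kb past the end of a long gene. Olfm4, a secreted glycoprotein gene, had 14, all downstream, with a median of 1497 kb, beside 2 shared and 4 mutant-specific distal peaks. The oncogenic lncRNA gene Pvt1 had 14, from 344 to 855 kb, all downstream, with 8 more wild-type-specific peaks inside the gene, 5 shared peaks of which 0 were distal, and no mutant-specific peak. Plpp3, an enzyme gene that breaks down lysophosphatidic acid, had 13 distal peaks downstream, at 101 to 549 kb, with no peak of the shared or mutant-specific list. Zfp608, a zinc finger gene, had 13, of which 11 lay upstream. Cox7c, a subunit of the respiratory chain, had 12 wild-type-specific peaks, all distal, beside 5 mutant-specific distal ones, more than any other gene of the 15 with most distal peaks. Efnb2, an ephrin ligand of blood vessel and nerve guidance, had 12, all downstream, from 128 to 1646 kb. Eya4 had 12, of which 10 lay upstream and whose median was 145 kb. The lncRNA genes Gm11217 (15), Spanxn4 (14), 1700016G22Rik (13), 1700019E08Rik (13) and Gm20125 (13) complete the 15.

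**Figure D4:**
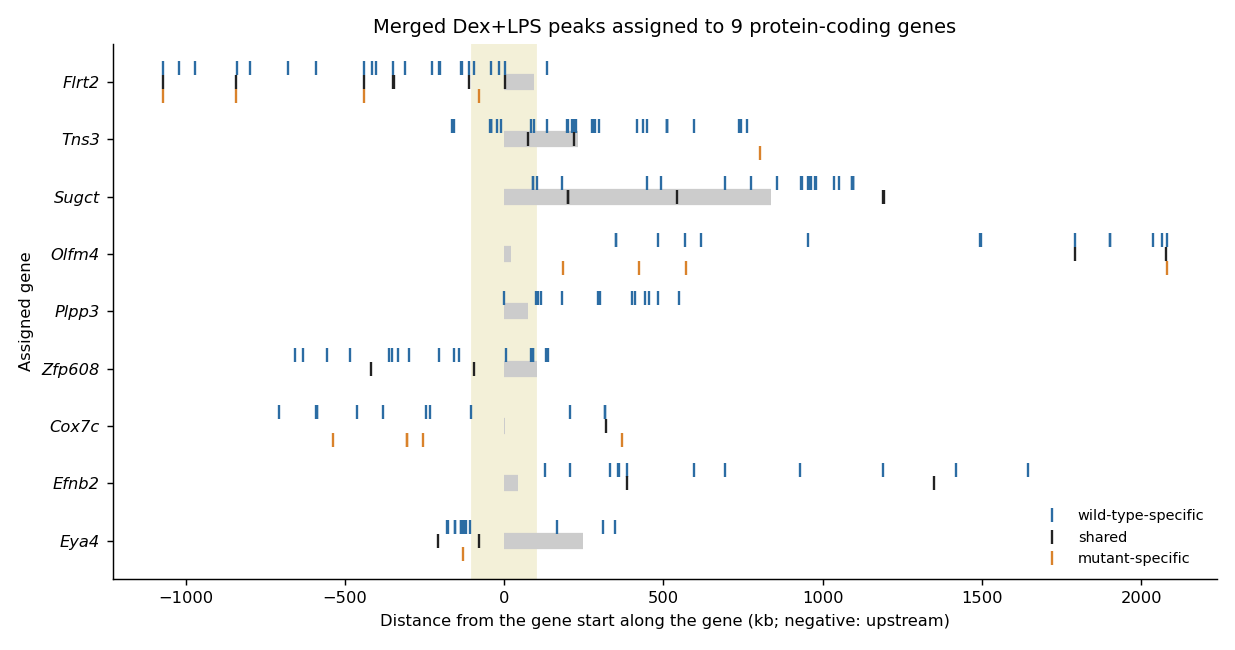
Peaks of the 3 merged Dex+LPS lists assigned to the 9 protein-coding genes among the 15 with most distal peaks, by distance from the gene start in kb along the gene (horizontal axis) and by gene (vertical axis); grey bars are gene bodies and the shaded band is 100 kb on each side of the start. Flrt2 and Zfp608 have their ticks mainly upstream, Olfm4, Plpp3 and Efnb2 downstream, and Plpp3 has no shared or mutant-specific tick.

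Of the 147 genes with at least 5 distal peaks, 35 (23.8%) had no peak in the shared or mutant-specific list at any position, against 50.8% of all genes with a distal peak. Only 8 of these 35 lay on chromosomes 10 to 14, which held 74 of the 147. Plpp3 had most (13), followed by D030024E09Rik (9), the Wnt antagonist gene Dkk2 (9) and Osr1 (9), a zinc finger factor of limb and kidney mesenchyme. Gm10635 and Gm32461 had 8 each. Further down stood the chemokine gene Cxcl12 (6), the transcription factor genes Maf, Foxa2 and Ikzf2 (6 each), the adhesion gene Slitrk1 (6) and the lymphatic growth factor gene Vegfc (5). These genes were taken from the end of the ranking after its values were seen.

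Named gene groups differed in how many of their genes had a distal peak, and so did the space around them. Over all protein-coding genes of the RefSeq table, 4.91% (1074 of 21887) had at least 1. The space beside a gene, measured as the sum of the gaps to the neighbouring protein-coding genes, had a median of 38.8 kb. With less than 100 kb of such space 0.703% of genes had a distal peak, with 100 to 500 kb 9.53%, with 500 to 1000 kb 29.6% and with more than 1000 kb 43.2%. A gene without space can hardly have a peak that meets the rule, so each list is given beside its own median space. The rule chose the peaks, so these counts carry no test and nothing is called particular to a list.

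Lists tied to the hormone, to inflammation and to the clock had distal peaks in a smaller share of genes than the developmental lists. The developmental lists also had more median space, so the shares do not compare the lists at equal space. Among all protein-coding genes, 0.703% of those with less than 100 kb of space had a distal peak, against 29.6% with 500 to 1000 kb. The shares of known GR targets and of NF-kB pathway genes lay above the 4.91% of all protein-coding genes. That of the clock list, 1 of 19 genes, lay near it. Of 45 known GR targets, 6 had a distal peak (13.3%, median space 86.0 kb). With the distance taken to the gene edge the 6 became 3, and with a threshold of 200 kb 2. Bcl6, a transcriptional repressor, had 3 at 104 to 195 kb, and Lpin1, an enzyme of fat synthesis, had 2, whereas Sgk1, a kinase of ion transport, Nr3c1 itself, Tgfbr3 and Tfcp2l1 had 1 each. Of 42 inflammatory genes of the NF-kB pathway, 4 did (9.52%, 72.3 kb), and 2 by gene edge or at 200 kb. The chemokine gene Cxcl12 had 6 at 101 to 209 kb, the LPS receptor gene Tlr4 had 2 at 371 and 383 kb, and Nfkb1 and Nfkbiz had 1 each. The peaks of Nfkb1 and Nfkbiz lay 4.045 and 77.2 kb past the end of the gene. No member of the AP-1 family (0 of 12, median space 54.0 kb) or of the interferon response (0 of 22, median space 21.2 kb) had a distal peak. At a threshold of 50 kb, 3 genes of the AP-1 family and 0 of the interferon response did. Of 19 clock genes only the nuclear receptor gene Rorb had a distal peak (5.26%, median space 104 kb). Most wild-type-specific peaks of these genes lay nearer, as at Sgk1, with 11 in all and 1 beyond 100 kb, itself 0.818 kb past the gene's end. The reverse held at Cxcl12 (6 of 8 distal), Lpin1 (2 of 2), Tfcp2l1 (1 of 1) and Rorb (2 of 3).

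Of 36 extracellular matrix and fibroblast genes, 13 had a distal peak (36.1%), with a median space of 163 kb and 35 peaks. Many of these peaks lay near the threshold or the gene's end: 2 genes had one beyond 200 kb, 7 had one when the distance was taken to the gene edge, and 4 with RefSeq positions. Col5a2, Col6a3 and Postn, which encode 2 collagen chains and periostin, had 5 each, all within 157 kb. Ctgf, a matricellular growth factor gene, had 4 at 102 to 129 kb and no peak in the shared or mutant-specific list. Has2, the gene of a hyaluronan synthase, had 4 at 147 to 348 kb. Tnc, the gene of tenascin C, had 22 wild-type-specific peaks with 1 of them distal, beside 13 shared and 15 mutant-specific ones, so that most of its peaks lay nearer to the gene.

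Transcription factor genes of mesenchyme and limb had distal peaks in 16 of 59 cases (27.1%, median space 403 kb), and in 10 by gene edge. Osr1 had 9 of its 10 wild-type-specific peaks beyond 100 kb, at 104 to 301 kb. Meis1, a homeobox gene of the limb, had 7 beside 4 mutant-specific distal peaks, and Zeb2, a repressor of epithelial genes, had 7 beside 3. Hmga2 also had 7, of which 6 formed the run past the gene's end. Runx1, Foxp1, Klf6 and Zeb1 had 4 each, and Runx2 and Tshz3 had 3 each. At Foxp1 the distal peaks, at 620 to 809 kb, were 4 of 27 wild-type-specific ones, since this long gene held many inside. Klf6 had 5 shared distal peaks, more than its 4 wild-type-specific ones, and no mutant-specific peak.

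Of 35 SOX, PAX, GATA and IRX genes and their partners, 8 had a distal peak (22.9%, 661 kb), 5 of them outside chromosomes 10 to 14. Of all protein-coding genes with 500 to 1000 kb of space, 29.6% had one. Eya4 led with 12, followed by the homeobox gene Irx1 with 8 at 111 to 417 kb. Pax3, a factor of neural crest and muscle precursors, had 4, all its wild-type-specific peaks, and Sox11 had 3. Gata3 and Eya1 had 2 each.

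Adhesion genes had the most space and the highest shares. Of 29 cadherins and protocadherins, 15 had a distal peak (51.7%), with a median space of 3116 kb. Pcdh17 had 11 at 284 to 2082 kb, and Pcdh20 had 6, all its wild-type-specific peaks, beside 3 shared ones. Cdh18 had 6, and Cdh11, a cadherin of mesenchymal cells, had 4 at 285 to 1013 kb. Cdh2 (N-cadherin), Cdh6 and Cdh9 had 3 each. Of 37 leucine-rich repeat and guidance genes, 15 did (40.5%, 1228 kb). After Flrt2 came Slitrk6 with 7, Slitrk1 and the ephrin receptor gene Epha7 with 6 and Slitrk5 with 5, where every wild-type-specific peak of these 4 genes was distal. Epha3 had 4, and Slit2, Sema3d and Sema6d, which encode guidance ligands, had 3 each. The share of these lists lay near the 43.2% of all genes with more than 1000 kb of space.

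Genes of secreted growth factors and their antagonists had a distal peak in 18 of 54 cases (33.3%, 328 kb), and in 10 at a threshold of 200 kb. Fgf9, a fibroblast growth factor of mesenchyme, had 10, all its wild-type-specific peaks, at 298 to 535 kb, beside 4 shared distal ones. Dkk2 had 9 at 114 to 217 kb with no shared or mutant-specific peak. Wnt5a, a ligand of limb outgrowth, had 5 at 102 to 193 kb, Vegfc 5, and Fgf1 5. Angpt1, a vessel-stabilising ligand, had 4 at 307 to 380 kb, and Pdgfd and Hgf had 3 each. Of the genes named here, Dkk2, Vegfc, Angpt1 and Pdgfd had no shared or mutant-specific peak. The same held for 50.8% of all genes with a distal peak. Fgf9, Wnt5a and Fgf1 each also had at least 1 shared distal peak, and Hgf had 1 mutant-specific one.

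Genes that mark other cell types which a fibroblast culture could hold had distal peaks in 3 of 75 cases (4.00%), near the 4.91% of all protein-coding genes. Of 15 macrophage, 12 endothelial and 12 neuron markers, 1 each did, namely Msr1, Kdr and Elavl4. None of the 12 muscle, 12 epithelial or 12 liver markers did. Their median space ran from 43.4 kb (liver) to 215 kb (neuron).

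**Figure D5:**
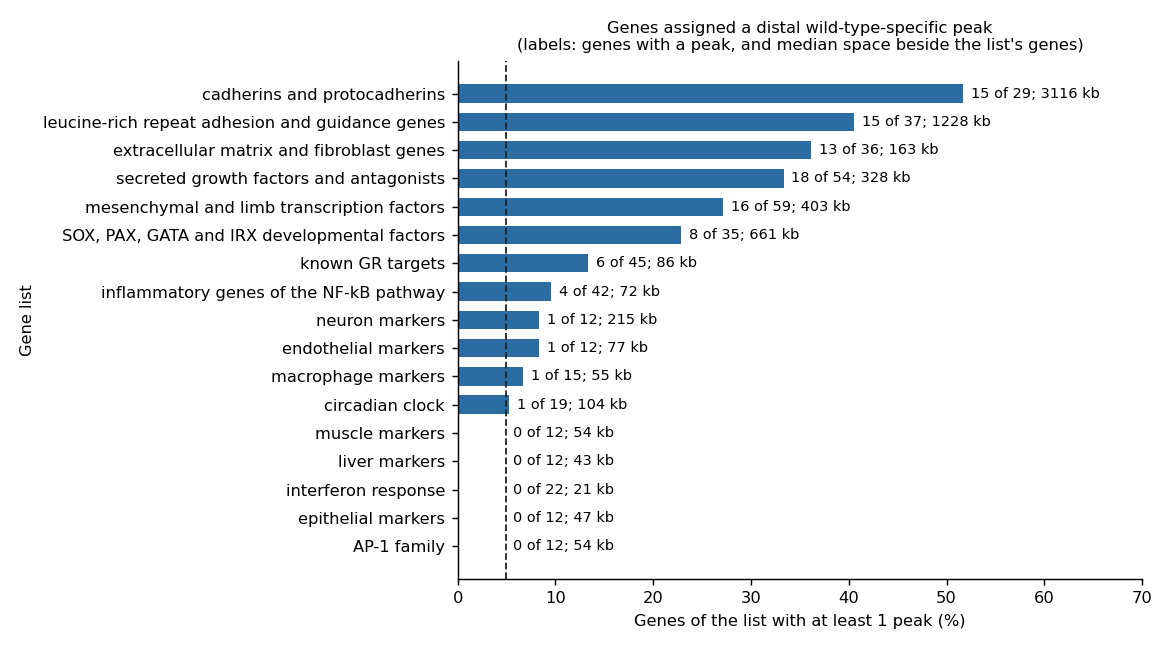
Percent of the genes of each list with at least 1 distal peak (horizontal axis) for the 17 gene lists (vertical axis); text gives the number of genes and the list's median space beside its genes, and the dashed line is the 4.91% of all protein-coding genes. Bars run from 0 to 51.7% and are longest for the cadherin list and the guidance list, which have most space. Below them the order does not follow space. The extracellular matrix list stands at 36.1% with a median space of 163 kb, and the SOX, PAX, GATA and IRX list at 22.9% with 661 kb.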

How the data were processed

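The files hold peak positions and distances in base pairs, as deposited by the authors, with no score, height or p-value per peak. In the merged Dex+LPS lists every peak was 200 bp wide, and peaks of knockout cells had been removed, per the file names. MACS2 2.1.0, BWA 0.7.13, Picard 1.119 and the build mm10 are named in the submitters' processing notes. How libraries were merged and genes assigned is not stated. The depth is unknown, and the length of a list can follow its depth and number of libraries, which touches every share of shared peaks.

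Position and distance to the gene start are the authors'. Peaks overlapped at 1 bp or more (checked against bedtools 2.31.1). Gene types, gene edges, deserts and promoter windows came from RefSeq tables of GRCm38, which matched 100% of the assigned genes by identifier. No genome was used, so other peak sequences are not printed. Intervals are exact (Clopper-Pearson, 95%) and, like floors of 3 counts, cover counting error only. Samples were grouped by title. Shares under Dex were compared by Fisher's exact test across peaks and Dex libraries by an exact permutation test, both two-sided, with scripts tested on simulated data. Alternatives were other overlaps, thresholds, gene tables and libraries, and leaving out chromosomes 10 to 14. Computation used scipy 1.17.1, numpy 2.4.6, pandas 2.3.3 and, for plots, matplotlib 3.10.9 under Python 3.11.15.

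Genes were named by rule: the 15 with most distal peaks, those overlapped in both wild-type Dex libraries, listed genes with at least 3, the 5 farthest peaks, the 5 nearest the threshold on each side and the 5 densest runs (by length per peak, among runs of at least 5 peaks). Others were chosen after their values were seen. The peaks and gene lists were chosen with earlier results of these data known.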

Additional observations from a re-analysis of the deposited data

How the results depend on the processing

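The number of distal peaks followed the rule: 4840 at 50 kb, 1749 at 200 kb, 1835 without chromosomes 10 to 14 and 2000 with RefSeq positions, against 2385 measured to the gene edge and 3203 without genes spanning over 2 Mb. The difference in Dex overlap (1.14 percentage points against peaks within 100 kb, 1.08 against gene bodies, 1.36 against gene starts) depended on chromosomes 10 to 14. Without them it was 0.0445, -0.0160 and -0.0723, and on them alone, an alternative added after seeing the data, the difference from gene starts was 3.42 (Fisher's exact test, adjusted p = 0.0693). By the same Fisher's exact test the difference from gene starts also missed the threshold at 100 bp overlap (1.02, adjusted p = 0.124) and at 50 kb (1.06, adjusted p = 0.0886). Leaving out a wild-type Dex library gave 0.275 to 0.852, 0.328 to 0.754 and 0.300 to 1.15 percentage points; without the second, the differences from peaks within 100 kb and from gene starts missed the threshold. The excess of wild-type over mutant Dex libraries was 18 to 37 peaks with 1 library left out and 3 without chromosomes 10 to 14. As a paired difference (replicate block) it was 27.5 (exact sign-flip p = 0.5, the smallest for 2 pairs); nothing states that the numbers pair the libraries. The share with a wild-type peak nearby was 31.4% within 5 kb, 55.7% within 25 kb and 31.9% without chromosomes 10 to 14. Without those chromosomes, 9 of the 15 named genes lost their peaks, and the number of genes with a peak moved by over 1.5 times in 1 of the 17 lists. It did so in 5 lists each at 50 kb, at 200 kb and by gene edge, and in 3 with RefSeq positions. The unknown depth limits any statement on sites missing from a list.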
